A study of Mus musculus with 18 samples.

Results

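Soft and stiff gels with the same, mid level of matrix tethering were compared across genes, from 6 of the 18 libraries of the series: 3 labelled Soft48 and 3 labelled Stiff48. All were made from wild-type E14 mouse embryonic stem cells (mESCs), an established line of 129m background, held on fibronectin-coated StemBond hydrogels for 24 h in medium with serum and the cytokine LIF. StemBond gels are polyacrylamide gels that carry AHA, a co-factor whose free end binds matrix protein covalently. Both groups had 48 mM AHA (mid), and they differed in stiffness, which was about 750 Pa for soft and about 160 kPa for stiff gels. The other 12 libraries were made at 16 mM (low) or 80 mM (high) AHA. E14 is a single line, and nothing in the labels says whether libraries of a group came from separate cultures, so the p-values measure the spread between libraries, which may be in part technical.

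Cells sense stiffness through integrins, transmembrane receptors that bind matrix proteins and link them, through talin and vinculin, to contractile actin bundles. Tension on these links promotes actin polymerisation, which frees the co-activator MRTF to act with serum response factor (SRF) on actin and muscle genes, and it also favours entry of YAP, the partner of TEAD factors, into the nucleus. mESCs in serum and LIF are heterogeneous. Naive pluripotency factors such as Esrrb, Nanog, Klf4 and Tbx3 keep the cells in a state like that of the pre-implantation epiblast, and FGF signalling through ERK moves them towards the formative and primed states that follow.

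Gene counts were 8067075 to 8789185 in soft and 6469313 to 8180698 in stiff libraries. Of 6 library measures (gene counts, ERCC spike-in share, reads not aligned, reads outside genes, protein-coding share and mitochondrial share), none reached an exact two-sided permutation p under 0.2, where 0.1 is the smallest that 3 against 3 libraries allow. Counts of replicate pairs differed by more than counting noise, with a chi-square per degree of freedom of 1.96 to 2.39. The labelled cell type was borne out by its markers: all 8 stem cell markers were above 1 CPM, with summed levels of 2730 to 2830 CPM on soft and 2490 to 2600 CPM on stiff gels. Levels are given as CPM, counts per 1000000 counts of protein-coding genes after TMM scaling, and fold changes are log2 of soft over stiff, so a negative value means lower on soft gels. Gene positions are those of the GENCODE M21 annotation of GRCm38.

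Of 13438 protein-coding genes tested, 384 (2.86%) were called at an adjusted p under 0.05 by edgeR's quasi-likelihood test: 136 (1.01%) were higher and 248 (1.85%) were lower on soft gels. A further group of genes lay below the threshold, since 1827 genes had an unadjusted p under 0.05, where 671.9 would be reached by chance. Changes were small. The median log2 fold change was 0.30 among genes called higher (quartiles 0.24 and 0.43) and -0.32 among genes called lower (quartiles -0.46 and -0.23), and 2 and 5 genes, respectively, changed by more than 1 on the log2 scale. The called genes were well covered, with a median mean level of 108 CPM among those higher and 120.0 CPM among those lower, against 24.9 CPM over all tested genes. The shares of 1.01% higher and 1.85% lower are the background for the counts called in each gene list below. The lists were not matched to all tested genes in level. The 3 soft and 3 stiff libraries did not overlap for 131 of the genes called higher and 235 of those called lower, whereas this was so for 18.0% of all tested genes. Over all tested genes the median log2 fold change was -0.000706. The count fell when a library was left out, to 222 without soft replicate 2 and 254 without stiff replicate 1. A fit with fewer libraries has less power, and the drops were not separated from that loss. The same holds for the lost calls of single genes given below. DESeq2 called 224 genes without and 295 with independent filtering.

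**Figure D1:**
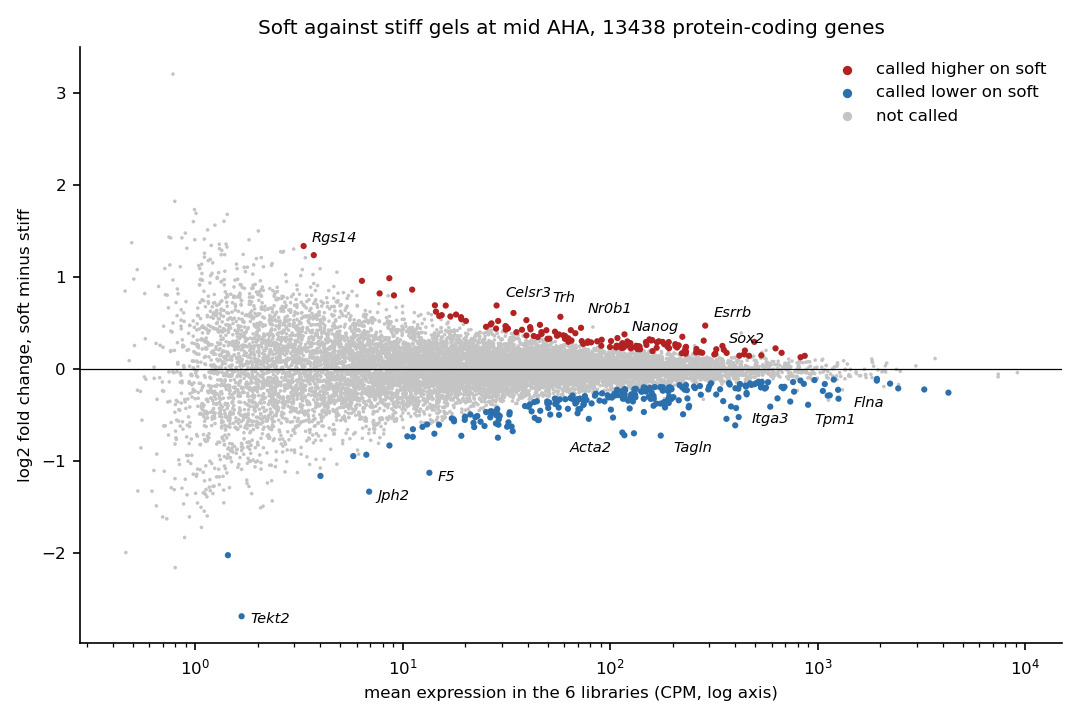
Mean level in the 6 libraries (CPM, log axis) against the log2 fold change of soft over stiff gels at mid AHA for the 13438 protein-coding genes tested, with 1 point per gene, red for the 136 called higher, blue for the 248 called lower and grey for the rest. Fold changes of called genes narrow towards 0 as the level rises, and Tagln, Acta2 and Itga3 are among the lowest points at their level while Esrrb is among the highest.

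Naive pluripotency genes were higher in part on soft gels. Of 19 listed and tested, 9 rose, none fell, and 18 had a positive log2 fold change, with a median of 0.26 against -0.000706 over all tested genes. The largest change was that of Esrrb (ENSMUSG00000021255, chr12:86361117-86521628, plus strand), an orphan nuclear receptor that activates the naive network. Its levels were 329.7, 362 and 311 CPM on soft and 238, 246 and 238 CPM on stiff gels (log2 fold change 0.47, SE 0.049, edgeR adjusted p = 4.17e-14), a ratio of 1.39. The lowest soft library lay well above the highest stiff one. Nr0b1 (Dax1), a nuclear receptor that partners Esrrb and Oct4, reached 80.8, 88.6 and 81.2 CPM on soft and 69.1, 61.5 and 53.2 CPM on stiff gels (log2 fold change 0.45, SE 0.085, edgeR adjusted p = 8.79e-05). Tbx3, a T-box repressor of differentiation, had 125, 122 and 116 CPM on soft and 106, 96.7 and 84.8 CPM on stiff gels (log2 fold change 0.34, SE 0.072, edgeR adjusted p = 0.000745). Soft and stiff libraries were separate for both genes, although for Tbx3 the gap between the lowest soft and highest stiff library was narrow, and the call for Tbx3 was lost without stiff replicate 3 (adjusted p = 0.0534) by edgeR.

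The homeobox factor Nanog, which sustains self-renewal, was 143, 134 and 125 CPM on soft and 105, 118 and 102 CPM on stiff gels (log2 fold change 0.30, SE 0.067, edgeR adjusted p = 0.00148). Tfcp2l1, a transcription factor downstream of LIF, was 221, 232 and 221 CPM on soft and 177, 195 and 194 CPM on stiff gels (log2 fold change 0.25, SE 0.054, edgeR adjusted p = 0.000903). Klf4, a zinc-finger factor that LIF induces, had 132, 133 and 128 CPM on soft and 115, 111 and 102 CPM on stiff gels (log2 fold change 0.26, SE 0.068, edgeR adjusted p = 0.0114). In each of these genes the 3 soft libraries were above the 3 stiff ones. Fgf4, the growth factor through which mESCs stimulate their own ERK pathway, also rose (log2 fold change 0.28, SE 0.067, edgeR adjusted p = 0.00349), as did Klf2 (log2 fold change 0.31) and the DNA demethylase Tet2 (log2 fold change 0.23). Leaving out a library ended the call of Klf2 once and that of Tet2 in 2 of 6 cases (adjusted p up to 0.0627 and 0.0698). By edgeR, Klf4 lost its call without soft replicate 2 (adjusted p = 0.0605) or stiff replicate 3 (adjusted p = 0.136), and Fgf4 without soft replicate 2 (adjusted p = 0.113) or stiff replicate 3 (adjusted p = 0.0624). The remaining 10 naive genes did not pass the test. Zfp42 (Rex1), a widely used marker of the naive state, was 219.8, 205 and 222 CPM on soft and 187, 197 and 188 CPM on stiff gels (log2 fold change 0.18, SE 0.055, edgeR adjusted p = 0.0549), and Klf5 was 255, 236 and 218 CPM on soft and 243, 223 and 240.1 CPM on stiff gels (log2 fold change 0.01, SE 0.053, edgeR adjusted p = 0.964). The Zfp42 libraries did not overlap, and those of Klf5 did. Nanog and Zfp42 share long stretches of near-identical sequence with a pseudogene each (at least 95% identity over 200 bases), so that their counts depend on how such reads were assigned.

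General pluripotency factors did not move as a group, with 1 of 12 called higher, 1 called lower and a median log2 fold change of 0.0239. Pou5f1 (Oct4), the defining factor of pluripotent cells, was 584, 535 and 542 CPM on soft and 530.5, 566 and 539 CPM on stiff gels. These values overlap (log2 fold change 0.02, SE 0.042, edgeR adjusted p = 0.885). Sox2, its binding partner, had 349, 365 and 333 CPM on soft and 333, 297 and 272 CPM on stiff gels (log2 fold change 0.22, SE 0.049, edgeR adjusted p = 0.00199), and 1 stiff library lay just above the lowest soft one. Sox2 lost its call without soft replicate 2 (adjusted p = 0.057) or stiff replicate 3 (adjusted p = 0.136). Lin28a, an RNA-binding protein that blocks let-7 maturation, fell slightly (log2 fold change -0.19, SE 0.041, edgeR adjusted p = 0.000797), from 575 ± 4.87 to 502 ± 22.1 CPM (SD, n = 3). Trim28 and Rif1, the most abundant listed genes that did not pass, had log2 fold changes of 0.06 and 0.11.

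Genes of the formative and primed epiblast were lower in part on soft gels. Of 17 tested, 6 fell and 1 rose, 14 had a negative log2 fold change, and the median was -0.26. The de novo DNA methyltransferases, which are induced as cells leave the naive state, both fell. Dnmt3a was 182, 161 and 175 CPM on soft and 221, 205 and 211 CPM on stiff gels (log2 fold change -0.30, SE 0.057, edgeR adjusted p = 0.000111), and Dnmt3b was 669.8, 665 and 605 CPM on soft and 744, 728 and 745 CPM on stiff gels (log2 fold change -0.19, SE 0.039, edgeR adjusted p = 0.000276). No soft library reached a stiff one for either gene. At low AHA neither Dnmt3a (0.02) nor Dnmt3b (-0.04) was called, and at high AHA Dnmt3b (-0.16) was called but Dnmt3a (-0.16) was not. Their difference between mid and the other AHA concentrations was not called (edgeR adjusted p = 0.647 for Dnmt3a and 0.909 for Dnmt3b). The ETS factor Etv4, a target of FGF and ERK, had 71.6, 59.9 and 61.3 CPM on soft and 93.4, 97.8 and 89.7 CPM on stiff gels (log2 fold change -0.54, SE 0.082, edgeR adjusted p = 3.08e-07), a ratio of 0.687. Nestin (Nes) and keratin 18 (Krt18), which are also intermediate filament genes, were among those that fell, with log2 fold changes of -0.40 and -0.32, and Foxp1 had -0.24. Zic2, a zinc-finger factor of the primed state, went the other way (log2 fold change 0.43, SE 0.13, edgeR adjusted p = 0.0397). Of 6 cases of a library left out, the call was lost for Zic2 in 5 (adjusted p up to 0.245) and Foxp1 in 2 (adjusted p up to 0.193). Pou3f1 (Oct6) was 58.0, 67.1 and 56.4 CPM on soft and 79.5, 67.7 and 69.8 CPM on stiff gels (log2 fold change -0.26, SE 0.088, edgeR adjusted p = 0.0976) and did not pass, and Sox4 was close to no difference (log2 fold change -0.00). Fgf5 and Otx2, classical markers of the formative state, were at 3.52 and 18.4 CPM on average and did not pass (adjusted p = 0.817 and 0.458, edgeR).

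SRF targets and contractile actin genes formed the list that was most widely lower on soft gels. All 37 listed genes were tested, 22 fell, none rose, 36 had a negative log2 fold change, and the median was -0.37. This list held 22 of the 248 genes called lower (background 1.85% of tested genes). Genes of smooth muscle actin and its partners were among those called. Acta2 (ENSMUSG00000035783, chr19:34241090-34255590, minus strand), which encodes smooth muscle α-actin, was 85.5, 88.0 and 91.5 CPM on soft and 156, 131 and 150.2 CPM on stiff gels (log2 fold change -0.72, SE 0.069, edgeR adjusted p = 4.92e-16), a ratio of 0.607. Tagln (ENSMUSG00000032085, chr9:45929619-45936058, minus strand), encoding the actin-bundling protein transgelin, was 129, 126 and 141 CPM on soft and 225, 202 and 228 CPM on stiff gels (log2 fold change -0.72, SE 0.059, edgeR adjusted p = 3.29e-20). The soft values of both genes were closely grouped and far below the stiff ones. Exons on the opposite strand covered 67.9% of the exon bases of Tagln, and the strand setting of the counting was not given in the sources used here. In bulk samples, fewer cells of a kind and less RNA per cell cannot be told apart.

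Abundant cytoskeletal genes fell by smaller amounts with narrow errors. Tropomyosin 1 (Tpm1), which stabilises actin filaments, was 772, 778 and 787 CPM on soft and 1040.1, 983 and 1038 CPM on stiff gels (log2 fold change -0.39, SE 0.037, edgeR adjusted p = 4.92e-16). Filamin A (Flna), an actin crosslinker that binds integrins, had 1122, 1156 and 1085 CPM on soft and 1389, 1419.5 and 1396 CPM on stiff gels (log2 fold change -0.32, SE 0.035, edgeR adjusted p = 2.81e-13). α-actinin 1 (Actn1), which bundles filaments in stress fibres, reached 614, 638 and 692 CPM on soft and 844, 816 and 824 CPM on stiff gels (log2 fold change -0.35, SE 0.039, edgeR adjusted p = 7.13e-13). All 3 were separate between soft and stiff gels. Cytoplasmic β-actin (Actb) also fell (log2 fold change -0.22), as did the non-muscle myosin heavy chains Myh9 (-0.21) and Myh10 (-0.21), caldesmon (Cald1, -0.41), filamin C (Flnc, -0.61), tropomyosins 2 and 4 (Tpm2, -0.53, and Tpm4, -0.38) and calponins 1 and 2 (Cnn1, -0.63, and Cnn2, -0.38). Skeletal α-actin (Acta1), a low-level gene in these cells, was 27.4 ± 5.24 CPM on soft and 38.2 ± 3.41 CPM on stiff gels (SD, n = 3, log2 fold change -0.47, edgeR adjusted p = 0.0169). Of 6 cases of 1 library left out, calls were lost for Acta1 in 3 (adjusted p up to 0.276) and Cnn1 in 2 (adjusted p up to 0.115). Of the 15 members that did not pass, transgelin 2 (Tagln2) was 163, 151 and 147 CPM on soft and 169.9, 167 and 189 CPM on stiff gels (log2 fold change -0.19, SE 0.059, edgeR adjusted p = 0.059), calponin 3 (Cnn3) had a log2 fold change of -0.00, γ-actin (Actg1) had 0.02, and Srf itself was 124 ± 9.56 CPM on soft and 137 ± 5.53 CPM on stiff gels (SD, n = 3, log2 fold change -0.15, edgeR adjusted p = 0.265). Under each of the 16 other settings tried, including each library left out, between 20 and 23 members of the list were called and its median stayed between -0.37 and -0.33.

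**Figure D2:**
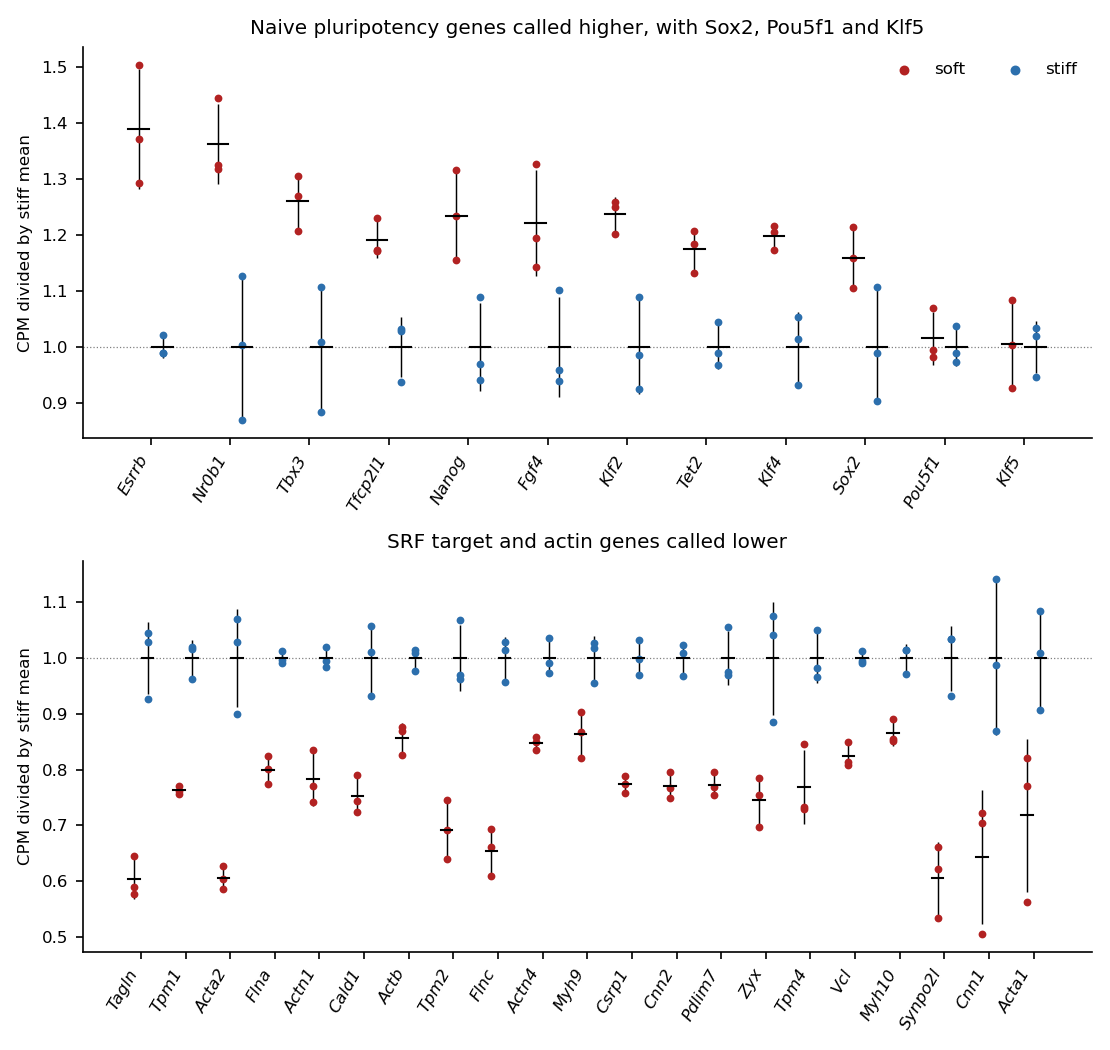
Level in each library (CPM divided by the mean of the 3 stiff libraries of that gene) for the naive pluripotency genes called higher, with Sox2, Pou5f1 and Klf5 (top), and for SRF target and actin genes called lower (bottom). Points are libraries (red soft, blue stiff), horizontal bars are means and vertical lines are SD (n = 3). Soft points of the 9 naive genes lie above their stiff points, Pou5f1 and Klf5 overlap, and all soft points in the lower panel are below the stiff points of the same gene.

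SRF binds the CArG box, which has CC and GG around 6 bases that are A or T. The windows from 250 bases before to 50 bases after annotated starts were taken from RefSeq for GRCm38.p6 and covered 10516 of the tested genes with 13461 windows. A CArG box on either strand was present in 9 of 38 windows of the SRF and actin list (23.7%), in 2.30% of windows of genes called lower, in 0.68% of those called higher and in 1.28% of all windows. These are matches of letters in reference sequence, and the list was drawn up from known SRF targets, so its share is no result of these libraries. The stretches around the box are shown for the called members of the list that hold one before the start, in order of adjusted p, with the box in capitals. Binding of SRF to these boxes was not tested.
Cnn2: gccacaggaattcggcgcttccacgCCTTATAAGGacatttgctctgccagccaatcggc
Vcl: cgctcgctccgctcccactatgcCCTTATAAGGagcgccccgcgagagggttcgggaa
Acta1: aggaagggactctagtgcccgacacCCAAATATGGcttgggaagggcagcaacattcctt
These reference sequences are read 5′ to 3′ on the strand of the gene and lie at chr10:79988519-79988578 on the plus strand for Cnn2, chr14:20929148-20929205 on the plus strand for Vcl and chr8:123894814-123894873 on the minus strand for Acta1. The boxes lie 56 to 47, 227 to 218 and 73 to 64 bases before the start. Cnn2 and Vcl hold the same 10 letters, a palindrome, and the genes had log2 fold changes of -0.38 and -0.28.

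Esrrb, a naive gene called higher, held a match to TTCNNNGAA before its start, the spacing that STAT factors recognise, here also in capitals.
Esrrb: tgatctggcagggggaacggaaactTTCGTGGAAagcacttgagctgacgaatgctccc
This stretch lies at chr12:86360914-86360972 on the plus strand for Esrrb, 178 to 170 bases before the start. The same letters were in 6.66% of all windows, 8.16% of those of genes called higher and 6.51% of those called lower. The octamer ATGCAAAT was in 1.28% of all windows, 1.36% of those of genes called higher and 1.53% of those called lower, and the TEAD element GGAATG in 12.1%, 10.2% and 16.9%, respectively. Of 16 windows of the naive list, 1 held the STAT spacing (6.25%), 1 the octamer (6.25%) and 3 the TEAD element (18.8%), and none held a CArG box. Of 38 windows of the SRF and actin list, 14 held the TEAD element (36.8%), 1 the octamer (2.63%) and none the STAT spacing.

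Integrins and focal adhesion genes were lower in part. Of 29 tested, 9 fell and 1 rose, with a median log2 fold change of -0.0804. Among receptors, the laminin-binding integrin α3 (Itga3) changed most, with 336, 335 and 354 CPM on soft and 492, 491 and 490.1 CPM on stiff gels (log2 fold change -0.52, SE 0.044, edgeR adjusted p = 2.98e-19). Its stiff libraries were nearly equal, and every soft library lay far below them. Integrin β1 (Itgb1), the common partner of fibronectin, laminin and collagen receptors, fell by less (log2 fold change -0.21). The fibronectin receptor chains α5 (Itga5, -0.11) and αV (Itgav, -0.23) did not pass. Among the linkers, talin 1 (Tln1) was 390.1, 441 and 404 CPM on soft and 490.2, 489 and 515 CPM on stiff gels (log2 fold change -0.28, SE 0.043, edgeR adjusted p = 9.43e-07), and vinculin (Vcl), which reinforces talin under tension, was 244, 255 and 243 CPM on soft and 299, 297 and 304 CPM on stiff gels (log2 fold change -0.28, SE 0.048, edgeR adjusted p = 8.87e-06). Zyxin (Zyx), recruited to strained actin, was 165, 147 and 159 CPM on soft and 226, 186 and 219 CPM on stiff gels (log2 fold change -0.42, SE 0.062, edgeR adjusted p = 5.12e-07). These linkers lay lower in all soft libraries, and Vcl and Zyx also belong to the SRF and actin list. Exons on the opposite strand covered 25.5% of Vcl. LPP (Lpp, log2 fold change -0.49), α-parvin (Parva, -0.53), p130Cas (Bcar1, -0.19) and the kinase Src (-0.32) fell as well. Enah (Mena), which extends actin filaments, was the member that rose (log2 fold change 0.14, SE 0.037, edgeR adjusted p = 0.00908). With each of the 6 libraries left out, calls were lost for Bcar1 in 4 (adjusted p up to 0.137) and Src in 3 (adjusted p up to 0.25). The focal adhesion kinase Ptk2 (-0.06) and paxillin (Pxn, -0.05) did not pass, nor did the more abundant tensin 3 (Tns3, -0.07) and Ajuba (-0.12).

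YAP and TEAD targets divided. Of 28 tested, 7 fell, none rose and 24 had a negative log2 fold change, with a median of -0.15. Ccn1 (Cyr61), a secreted matricellular protein, was 143, 133 and 143 CPM on soft and 188, 192 and 172 CPM on stiff gels (log2 fold change -0.40, SE 0.059, edgeR adjusted p = 1.33e-07). The angiomotin-like genes, inhibitors of YAP that YAP itself induces, both fell: Amotl2 was 417, 418 and 406 CPM on soft and 498, 501 and 487 CPM on stiff gels (log2 fold change -0.26, SE 0.042, edgeR adjusted p = 2.62e-06), and Amotl1 had a log2 fold change of -0.32. Lats2, the kinase that phosphorylates YAP, had 25, 26.7 and 27.4 CPM on soft and 41.2, 40.8 and 40.1 CPM on stiff gels (log2 fold change -0.63, SE 0.12, edgeR adjusted p = 0.000105). None of these values overlapped between soft and stiff gels. The growth factor Tgfb2 was 22.8, 20.2 and 21.4 CPM on soft and 36.2, 33.7 and 38.5 CPM on stiff gels (log2 fold change -0.75, SE 0.13, edgeR adjusted p = 2.19e-05), and Crim1 (-0.49) and the receptor kinase Axl (-0.55) were also lower. In contrast, Ccn2 (Ctgf), the other widely used YAP target, was 84.7, 95 and 80.6 CPM on soft and 91.6, 96.5 and 79.8 CPM on stiff gels (log2 fold change -0.05, SE 0.077, edgeR adjusted p = 0.861) and did not pass. Ankrd1 was scarce (1.69 ± 0.886 CPM on soft and 2.55 ± 0.507 CPM on stiff gels, SD, n = 3) and gave a log2 fold change of -0.58 with an SE of 0.47. Yap1 itself had a log2 fold change of 0.06 and Tead1 of -0.11, neither of which passed.

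Matrix genes were lower in part on soft gels, with 11 of 32 called lower, 1 called higher, 20 not called and a median log2 fold change of -0.22. The collagen chaperone Serpinh1 (Hsp47) was 105, 107 and 105 CPM on soft and 152, 136 and 139.9 CPM on stiff gels (log2 fold change -0.43, SE 0.069, edgeR adjusted p = 2.03e-06). Basement membrane collagen IV chains fell together, with Col4a2 at 147, 176 and 179.9 CPM on soft and 227, 197 and 212 CPM on stiff gels (log2 fold change -0.33, SE 0.059, edgeR adjusted p = 3.75e-05) and Col4a1 at a log2 fold change of -0.22. The proteoglycan perlecan (Hspg2) was 1102, 1209 and 1160.1 CPM on soft and 1360.1, 1319.7 and 1379.5 CPM on stiff gels (log2 fold change -0.23, SE 0.042, edgeR adjusted p = 0.000468). Laminin chains split: Lamb1 fell (log2 fold change -0.22, SE 0.047, edgeR adjusted p = 0.000821) and Lama5 fell (-0.16), while Lama1, the α chain of the laminin of the early embryo, rose from 152, 148 and 154 CPM on stiff to 174, 191 and 190.3 CPM on soft gels (log2 fold change 0.29, SE 0.063, edgeR adjusted p = 0.00145). Thbs1 (-0.54), Col5a1 (-0.31), Sparc (-0.18) and Col1a1 (-0.70) were also among the members called lower. Fibronectin (Fn1), the protein with which the gels were coated, was 1016, 1148 and 1062 CPM on soft and 1081, 1052 and 1115 CPM on stiff gels (log2 fold change -0.01, SE 0.037, edgeR adjusted p = 0.942), and Col18a1 had a log2 fold change of -0.02. When libraries were left out in turn, calls were lost in some of 6 cases: Col1a1 in 2 (adjusted p up to 0.0915), Col4a1 in 4 (adjusted p up to 0.156), Lama5 in 3 (adjusted p up to 0.16) and Sparc in 3 (adjusted p up to 0.102). Without soft replicate 1 the matrix list had 7 called genes in place of 12.

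Markers of other cell types were checked beside these groups. The 10 fibroblast markers summed to 126 to 157 CPM on soft and 178 to 251 CPM on stiff gels, of which Col1a1 alone gave 88.8 to 108 and 140.4 to 196 CPM. It was the only 1 of 7 tested fibroblast markers that was called. The defining markers Dcn and Lum were at most 0.654 and 0.450 CPM, with Dcn at 0 in all 3 stiff libraries and Lum above 0 in 1 stiff library alone. Thy1 was 2.69, 2.50 and 2.61 CPM on soft and 4.73, 3.45 and 4.45 CPM on stiff gels, lower in all soft libraries as Col1a1 was, and was not called. The 11 primitive endoderm markers summed to 594 to 688 CPM on soft and 715 to 758 CPM on stiff gels, where Lamb1 and Col4a1 were the 2 called members and Gata6, Gata4 and Sox17 stayed below 10 CPM. Dab2 was 16.8, 20.0 and 21.1 CPM on soft and 24.1, 21.4 and 22.3 CPM on stiff gels, also lower in all soft libraries and not called. The part of either cell type in the lower actin and matrix values was not tested. Sums of the 9 trophoblast, 8 mesoderm and streak, 8 neural and 2-cell-like markers overlapped between soft and stiff libraries, and no member was called.

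Keratins were the main intermediate filament genes called lower. Of 16 filament and lamina genes, 5 fell, none rose, and the median log2 fold change was -0.11, where 1.85% of all tested genes were called lower. The pair of simple-epithelial keratins fell together: Krt8 was 334, 313 and 339.9 CPM on soft and 451, 437 and 419.6 CPM on stiff gels (log2 fold change -0.41, SE 0.045, edgeR adjusted p = 1.18e-12) and Krt18 was 546, 558 and 606 CPM on soft and 716, 719.7 and 697 CPM on stiff gels (log2 fold change -0.32, SE 0.041, edgeR adjusted p = 1.97e-09). Krt19 was 122, 124 and 120.1 CPM on soft and 176, 160.4 and 171 CPM on stiff gels (log2 fold change -0.47, SE 0.062, edgeR adjusted p = 3.63e-09), and vimentin (Vim) fell by less (log2 fold change -0.21, SE 0.041, edgeR adjusted p = 0.000174). The B-type lamins were not called, with log2 fold changes of -0.07 for Lmnb1 and 0.00 for Lmnb2. Krt8 shares near-identical sequence with a pseudogene, Krt8-ps.

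Cell junction genes followed, with 7 of 22 called lower (1.85% of all tested genes), none higher and a median of -0.13. Desmoplakin (Dsp), which anchors keratins at desmosomes, was 343, 379.6 and 391 CPM on soft and 443, 456 and 479 CPM on stiff gels (log2 fold change -0.31, SE 0.046, edgeR adjusted p = 2.59e-07), and plakophilin 2 (Pkp2) had a log2 fold change of -0.31. E-cadherin (Cdh1, -0.12), α-catenin (Ctnna1, -0.14), Tjp1 (-0.17), Nectin2 (-0.23) and afadin (Afdn, -0.16) fell by small amounts. Calls were lost by edgeR in some of the 6 cases of a library left out: Cdh1 in 5 (adjusted p up to 0.235), Ctnna1 in 4 (adjusted p up to 0.143), Nectin2 in 3 (adjusted p up to 0.206), Tjp1 in 3 (adjusted p up to 0.134), Afdn in 3 (adjusted p up to 0.182) and Pkp2 in 2 (adjusted p up to 0.115). β-catenin (Ctnnb1) did not pass (log2 fold change 0.08, adjusted p = 0.336, edgeR). The number of junction genes called was 3 or 4 when any 1 of 5 libraries was left out, all but stiff replicate 2. Of 18 genes for membrane tension and caveolae, 3 fell: moesin (Msn), which ties actin to the membrane, was 300.3, 307 and 319 CPM on soft and 378, 409 and 392 CPM on stiff gels (log2 fold change -0.35, SE 0.045, edgeR adjusted p = 8.89e-10), and annexin A3 (Anxa3) and cavin 1 (Cavin1) had log2 fold changes of -0.43 and -0.22. Cavin1 lost its call without soft replicate 3 (adjusted p = 0.0771) or stiff replicate 1 (adjusted p = 0.152). The large scaffold Ahnak was 919.7, 1061 and 1007 CPM on soft and 1161, 1277 and 1338 CPM on stiff gels (log2 fold change -0.34, SE 0.094, edgeR adjusted p = 0.0941), and Ezr had -0.12. The Ahnak libraries were separate although the gene was not called.

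Of 29 ERK feedback and target genes 7 fell, none rose, and the median log2 fold change was -0.12, where 1.85% of all tested genes were called lower. Besides Etv4, the phosphatase Dusp4, which switches ERK off in the nucleus, was 112, 117 and 111 CPM on soft and 145, 148 and 140.5 CPM on stiff gels (log2 fold change -0.35, SE 0.064, edgeR adjusted p = 3.20e-05). Dusp14 was 24.5, 22.0 and 22.5 CPM on soft and 31.7, 39.9 and 33.0 CPM on stiff gels (log2 fold change -0.61, SE 0.13, edgeR adjusted p = 0.00105), and Myc was 113, 104 and 102 CPM on soft and 137, 129.5 and 119.6 CPM on stiff gels (log2 fold change -0.27, SE 0.068, edgeR adjusted p = 0.00763). Each of the 3 was lower in all soft libraries. Dusp14 lost its call without stiff replicate 2 (adjusted p = 0.0616), and Myc without soft replicate 2 (adjusted p = 0.0529), soft replicate 3 (adjusted p = 0.0681) or stiff replicate 1 (adjusted p = 0.106). Spred1 (-0.21), Fosl2 (-0.32) and Phlda1 (-0.35) were also called, but of the 6 libraries left out in turn, Spred1 lost its call in 4 (adjusted p up to 0.177), Fosl2 in 3 (adjusted p up to 0.392) and Phlda1 in 4 (adjusted p up to 0.408). The feedback inhibitors Spry4 (log2 fold change 0.00) and Dusp6 (-0.12), the immediate early gene Egr1 (-0.07) and Etv5 (0.07) did not pass. The list had 3 or 4 called genes without soft replicate 1, soft replicate 2 or stiff replicate 2, and 4 with DESeq2.

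LIF pathway genes and Nodal, TGF beta and BMP genes gave no calls by edgeR among 16 and 25 tested, although 1 gene of the latter list was called without stiff replicate 3. Their medians were 0.00279 and -0.0299. The LIF receptor (Lifr) was 139, 142 and 129 CPM on soft and 117, 122 and 120.4 CPM on stiff gels (log2 fold change 0.19, SE 0.065, edgeR adjusted p = 0.109), separate between groups but not called, and Pim3 had a log2 fold change of -0.10. Skil and Tdgf1 (Cripto) had -0.10 and -0.14. Of 22 Wnt genes 3 fell, where 1.85% of all tested genes were called lower. They were the cyclin Ccnd1 (log2 fold change -0.34, SE 0.066, edgeR adjusted p = 0.000139), the receptor Fzd2 (log2 fold change -0.58, SE 0.12, edgeR adjusted p = 0.000622) and the feedback inhibitor Axin2 (log2 fold change -0.37, SE 0.1, edgeR adjusted p = 0.0182). Tcf7l1, a repressor of naive genes, had 0.14 and did not pass. Axin2 lost its call without soft replicate 1 (adjusted p = 0.0913), soft replicate 2 (adjusted p = 0.0849) or stiff replicate 1 (adjusted p = 0.157), and with DESeq2. Exons on the opposite strand covered 23.4% of Ccnd1. Among 18 secreted factors, the neuropeptide precursor Trh was higher, with 72.1, 72.8 and 61.4 CPM on soft and 47.7, 46.1 and 45.3 CPM on stiff gels (log2 fold change 0.57, SE 0.096, edgeR adjusted p = 6.48e-06), and Fgf4 rose as given above. The macrophage growth factor Csf1 was 26.7, 25.2 and 26.3 CPM on soft and 42.1, 40.2 and 42.9 CPM on stiff gels (log2 fold change -0.68, SE 0.12, edgeR adjusted p = 2.69e-05), and Vgf had 19.6, 28.1 and 27.6 CPM on soft and 37.4, 37.0 and 41.7 CPM on stiff gels (log2 fold change -0.63, SE 0.13, edgeR adjusted p = 0.000255). These 3 genes were separate between soft and stiff gels, whereas Igf2 was not called (log2 fold change -0.17).

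Lists of general cell physiology gave few calls, apart from that of the cell cycle. None of the 40 cytosolic ribosomal protein genes or the 13 genes of the mitochondrial genome was called by edgeR with all libraries of the fit, with medians of 0.0360 and 0.0736. Among the most abundant members, Rpl8 and Rpl4 had log2 fold changes of 0.07 and 0.09, mt-Co1 had 0.11 and mt-Nd1 -0.00. With only the 6 libraries, edgeR called 1 gene of each list, and 1 ribosomal protein gene was also called with the filter of 2 counts, with the non-robust fit and without stiff replicate 3. ATF4 targets gave no call among 20 by edgeR, although the median was 0.14 and the amino acid transporter genes Slc7a5 and Slc3a2 were at -0.12 and -0.12. Of 27 cell cycle genes 5 fell, where 1.85% of all tested genes were called lower. Besides Ccnd1 and Myc these were Cdk6 (log2 fold change -0.38, SE 0.081, edgeR adjusted p = 0.000821), Ccne1 (log2 fold change -0.19, SE 0.047, edgeR adjusted p = 0.00702) and Ccne2 (log2 fold change -0.49, SE 0.15, edgeR adjusted p = 0.0458), all of which act at the start of the cycle. Top2a and Mki67, which mark dividing cells, were at 1183 ± 25.9 CPM on soft and 1179 ± 10.2 CPM on stiff gels and 718 ± 11.4 CPM on soft and 752 ± 27.0 CPM on stiff gels (SD, n = 3), with log2 fold changes of 0.00 and -0.07. Ccne1 lost its call without soft replicate 2 (adjusted p = 0.139), stiff replicate 1 (adjusted p = 0.0653) or stiff replicate 2 (adjusted p = 0.0689). Fewer cell cycle genes were called, 2 or 3, without soft replicate 2 or 3, without stiff replicate 1 or 2, or without genes under opposite-strand exons, and Ccne2 lost its call whichever library was left out (edgeR adjusted p up to 0.275).

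Metabolic genes went both ways. In glycolysis, 2 of 22 rose and 2 fell. The glucose transporter Slc2a1 fell (log2 fold change -0.20, SE 0.041, edgeR adjusted p = 0.000297) as did Aldoa (log2 fold change -0.14, SE 0.041, edgeR adjusted p = 0.0331), whereas Ldhb, which favours the use of lactate, rose (log2 fold change 0.37, SE 0.092, edgeR adjusted p = 0.00777) with Pfkp (log2 fold change 0.24, SE 0.066, edgeR adjusted p = 0.0188). The number called in glycolysis was 1 without stiff replicate 1, and 2 without soft replicate 1, soft replicate 3 or stiff replicate 3 and with DESeq2. With 1 library left out at a time, Aldoa and Pfkp were each not called in 4 of 6 cases, and Ldhb in 3. Pkm and Slc2a3 did not pass (log2 fold changes -0.08 and -0.06). In the cholesterol list, Srebf2, a transcription factor for sterol genes, had a log2 fold change of -0.04 and did not pass. Among 16 antioxidant genes the mitochondrial superoxide dismutase Sod2 rose, from 102 ± 8.25 to 133 ± 9.88 CPM (SD, n = 3, log2 fold change 0.38, edgeR adjusted p = 7.33e-05), and Txnrd1 and Gpx1 had -0.12 and 0.12. Of 17 chaperone genes, the mitochondrial co-chaperone Hspe1 (-0.39) and Hsp90b1 of the endoplasmic reticulum (-0.11) fell, the latter with a call that 6 of the 9 settings other than leaving out a library in which it was tested did not give. Leaving out a library ended the call of Hsp90b1 in 5 of 6 cases, and that of Hspe1, whose soft and stiff ranges overlapped, without stiff replicate 2 (adjusted p = 0.0689), where neither was called. Hsp90ab1 (-0.04) and Hsp90aa1 (0.04) did not pass. Among 14 germ cell genes, the receptor Kit rose (log2 fold change 0.33, SE 0.1, edgeR adjusted p = 0.0463) but was not called in 10 of the 16 other settings, and Tex19.1 and Tfap2c had log2 fold changes of -0.23 and 0.15.

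**Figure D3:**
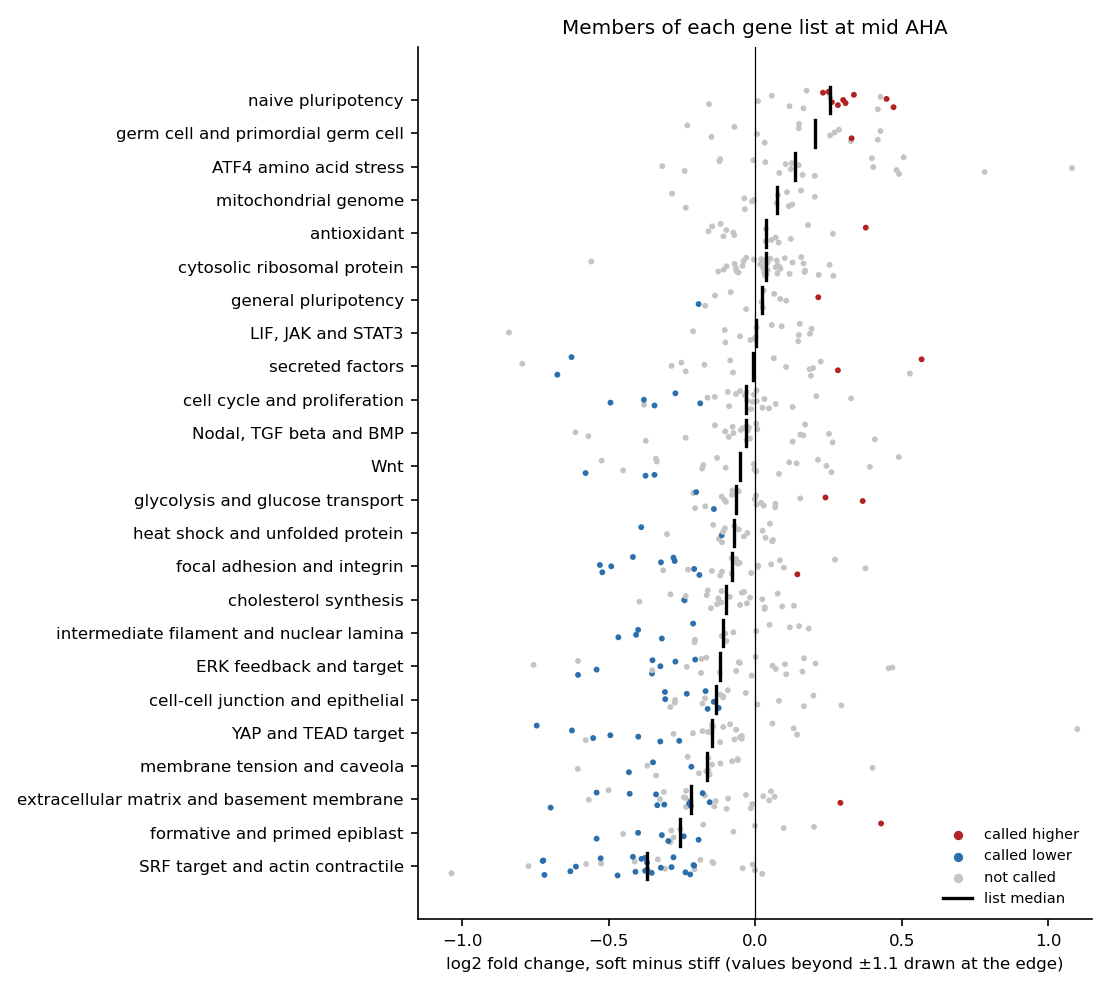
Log2 fold change of soft over stiff gels at mid AHA for the tested members of 24 gene lists, with lists ordered by their median (black bar) and 1 point per gene, red when called higher, blue when called lower and grey otherwise. The SRF and actin list lies lowest, with a median of -0.37 and 22 of 37 genes called lower, and the naive pluripotency list highest, with 0.26 and 9 of 19 genes called higher.

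The largest changes among called genes were found in genes of low level that belong to few of these lists. Lowest on soft gels among called genes was Tekt2, a tektin of ciliary microtubules, with 0.474, 0.179 and 0.654 CPM on soft and 1.13, 3.97 and 3.64 CPM on stiff gels (log2 fold change -2.69, SE 0.61, edgeR adjusted p = 0.0021). These values rest on 1 to 23 counts per library, and exons on the opposite strand covered 20.8% of Tekt2. Jph2, which couples membranes to calcium stores in muscle, was 3.16, 4.11 and 4.41 CPM on soft and 12.4, 8.81 and 8.50 CPM on stiff gels (log2 fold change -1.33, SE 0.27, edgeR adjusted p = 0.000381). The coagulation factor gene F5 was 7.90, 8.23 and 9.31 CPM on soft and 15.1, 21.6 and 18.6 CPM on stiff gels (log2 fold change -1.13, SE 0.19, edgeR adjusted p = 8.41e-06), and both it and Jph2 were called with any library left out. Aff2 (-2.02), Macc1 (-1.16), Col6a5 (-0.93), Pon2 (-0.83), Abracl (-0.74) and Uggt2 (-0.73) were lower but each lost its call without at least 3 of the 6 libraries. Synpo2l, an actin-binding protein of muscle, was 15.8, 14.8 and 12.7 CPM on soft and 22.3, 24.7 and 24.7 CPM on stiff gels (log2 fold change -0.73, SE 0.15, edgeR adjusted p = 0.000783). At low and high AHA, log2 fold changes were -0.13 and -0.59 for Tekt2, -0.36 and 0.18 for Jph2 and -0.14 and 0.15 for Aff2. Those of F5 were -0.95 and -0.25, and those of Synpo2l were -0.73 and -0.68.

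Highest on soft gels among called genes was Rgs14, a regulator of G protein signalling, with 6.32, 5.19 and 2.94 CPM on soft and 1.80, 2.94 and 0.810 CPM on stiff gels (log2 fold change 1.34, SE 0.4, edgeR adjusted p = 0.0403) and 4 to 40 counts per library. Lrrc15 was 10.7, 6.80 and 16.8 CPM on soft and 6.08, 6.04 and 5.26 CPM on stiff gels (log2 fold change 0.99, SE 0.26, edgeR adjusted p = 0.0131). Nars2, the mitochondrial asparaginyl-tRNA synthetase, was 13.0, 14.8 and 15.4 CPM on soft and 6.08, 7.94 and 9.51 CPM on stiff gels (log2 fold change 0.86, SE 0.21, edgeR adjusted p = 0.00417). The ranges were separate for all 3 but close for Rgs14 and Lrrc15. Leaving out 1 library ended the call in 4 of 6 cases for Rgs14, 2 for Lrrc15 and 1 for Nars2. Celsr3, an atypical cadherin of planar cell polarity, was 32.6, 37.9 and 34.8 CPM on soft and 24.3, 25.2 and 15.4 CPM on stiff gels (log2 fold change 0.69, SE 0.14, edgeR adjusted p = 0.000237), and Dzip1, needed for primary cilia, was 38.6, 41.3 and 44.0 CPM on soft and 28.4, 24.5 and 28.5 CPM on stiff gels (log2 fold change 0.61, SE 0.12, edgeR adjusted p = 0.000286). Both kept their call with any library left out, and exons on the opposite strand covered 28.4% of Dzip1. Tiam2 (0.96), Fam167a (0.82), Nacc2 (0.80), Dnajc6 (0.69), the autophagy gene Atg16l2 (0.69), Ildr1 (0.62) and Agk (0.59) each lost their call without at least 2 libraries. They completed the 12 highest called genes with a mean of at least 1 CPM and no overlap of soft and stiff libraries. At low and high AHA, Tiam2 had -0.50 and -0.09, Nacc2 -0.19 and -0.20 and Rgs14 -0.34 and 0.95. Celsr3 had 0.13 and 0.26 there, and Dzip1 had 0.24 and 0.29.

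Stiffness was also compared at low and high AHA. These contrasts use other libraries than the fold changes at mid AHA, but all share the filter and the estimate of spread that entered the calls. Of the 136 genes called higher at mid AHA, 126 had a positive log2 fold change at low and 122 at high AHA, with medians of 0.16 and 0.18. Of the 248 called lower, 237 and 232 were negative, with medians of -0.28 and -0.15. Among all tested genes, 60.1% at low and 58.8% at high AHA had the sign they had at mid. For naive genes the list medians were 0.19 at low, 0.26 at mid and 0.28 at high AHA. Those of the SRF and actin list were -0.29 at low, -0.37 at mid and -0.14 at high AHA, where 22, 22 and 6 members were called lower. Matrix genes had medians of -0.22 at low, -0.22 at mid and -0.03 at high AHA. Formative and primed genes had -0.12 at low, -0.26 at mid and -0.12 at high AHA. The high AHA comparison rested on 2 soft libraries, since that with the highest ERCC share was left out.

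A direct test of the stiffness difference at mid AHA against the mean of those at low and high AHA called none of 13438 genes (0%) by edgeR, with a smallest adjusted p of 0.408 and 732 genes at an unadjusted p under 0.05. DESeq2 called none either. The median SE of this difference was 0.086 for the called genes, against 0.069 for the mid comparison itself. The genes with the lowest adjusted p were Prkdc, the DNA repair kinase (difference -0.45, SE 0.11), Pdgfa (0.38), the respiratory chain subunit Uqcrq (0.32), Zfp658 (1.24) and E4f1 (0.54). For Acta2 the difference was -0.29 (SE 0.086, edgeR adjusted p = 0.569), for Tagln -0.26 (adjusted p = 0.44) and for Esrrb 0.19 (adjusted p = 0.748). Thus no gene was shown to respond to stiffness by a different amount at mid AHA, which does not show that the amounts were equal.

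**Figure D4:**
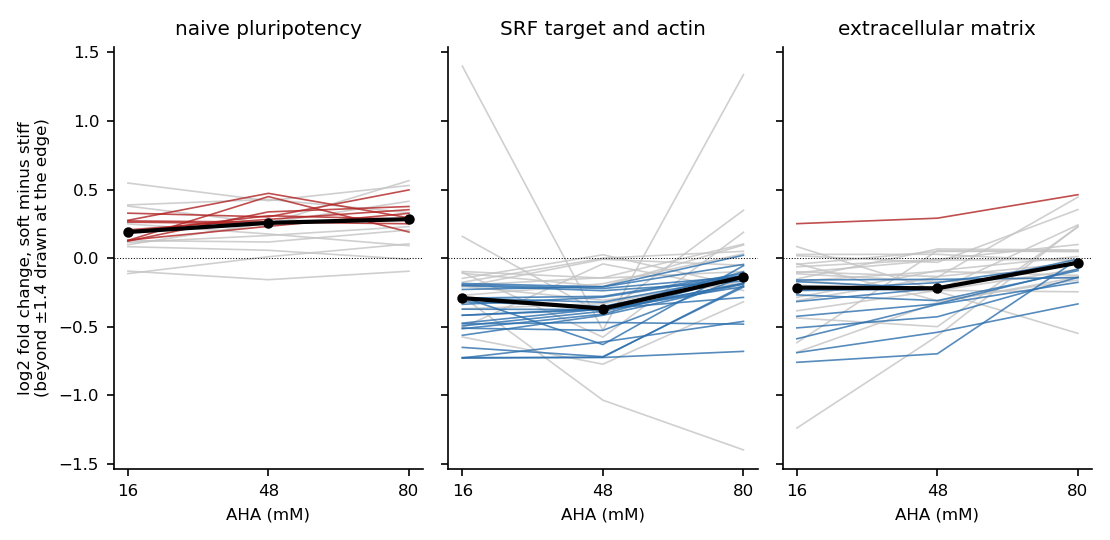
Log2 fold change of soft over stiff gels at 16, 48 and 80 mM AHA for members of the naive pluripotency, SRF target and actin, and extracellular matrix lists, with 1 line per gene, red or blue when called higher or lower at 48 mM and grey otherwise, and the list median in black. The naive medians stay between 0.19 and 0.28, while the actin median goes from -0.29 and -0.37 to -0.14 at 80 mM.

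Genes that are not protein-coding were tested in a fit of all 16350 genes, where 17 of 2917 were called (0.583%), 8 higher and 9 lower on soft gels. Of these, 10 were processed pseudogenes, whose reads may come from their parent genes. The lowest adjusted p was that of the pseudogene Gm6863, with 138, 133 and 148 CPM on soft and 163, 177 and 172 CPM on stiff gels (log2 fold change -0.29, SE 0.055, edgeR adjusted p = 0.000118). The pseudogenes Gm5560 (-0.48) and Gm11814 (-0.50) were also lower. B230354K17Rik, a long non-coding RNA from a bidirectional promoter, was higher, with 36.9, 34.9 and 35.5 CPM on soft and 24.0, 23.7 and 26.4 CPM on stiff gels (log2 fold change 0.54, SE 0.11, edgeR adjusted p = 0.000318), as was the processed transcript Gm13110 (log2 fold change 1.23, SE 0.31, edgeR adjusted p = 0.0102). Soft and stiff values were separate for all 5.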

How the data were processed

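The deposited values are raw read counts for each Ensembl gene in 18 libraries. Per the labels and the study's methods, the authors used a low-input total RNA kit, Trim Galore 0.4.4, GSNAP with the GRCm38/mm10 genome, and HTSeq, whose strand setting is not given in the sources used here. GENCODE M21 supplied gene names. The labels give each library's gel and AHA concentration but no culture, so p-values measure the spread between libraries, which may be technical.

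The filter filterByExpr (minimum count 10) and TMM scaling were applied to protein-coding genes, and edgeR 4.0.16 (R 4.3.3) fitted a robust quasi-likelihood model with 1 coefficient per group to 17 libraries, omitting the one at high AHA on soft gels whose ERCC spike-ins took the largest share. Benjamini-Hochberg adjustment covered all tested genes of a contrast, with a threshold of 0.05. The biological coefficient of variation was 5.35%. On simulated counts for the mid comparison (13202 genes), 52% of genes changed by 0.6 and 24% of those changed by 0.3 on the log2 scale were recovered, and 1 of 13002 unchanged genes was called. Shared sequence was searched with BLAST, and 18 of the genes named by rule had at least 95% identity over 200 bases with another gene. Besides Nanog and Krt8, the called ones were Hspe1, Ldhb, Cdk6, Afdn, Abracl, Agk and Col6a5. Their counts depend on how such reads were assigned.

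The comparison, gene lists and rules were chosen with earlier results of these data known. Genes were named by rule: the 12 highest and 12 lowest called genes with a mean of at least 1 CPM and no overlap, per list up to 5 called genes of lowest adjusted p and the 2 most abundant others, 6 pluripotency factors, the 5 lowest adjusted p-values of the difference between AHA concentrations, and 5 non-coding genes; further genes given within a list by their fold change (such as Klf2, Actb, Srf, Ccn2 or Egr1) were chosen after their values were seen. Alternatives were RLE scaling, a filter of 2 counts, all 18 or only the 6 compared libraries, a non-robust fit, DESeq2 1.42.0, exclusion of genes under opposite-strand exons, and each library left out; edgeR's newer quasi-likelihood method was added after seeing the data. Protein-coding counts of the 18 library pairs within groups were compared by chi-square, and no pair was within sampling noise (lowest value per degree of freedom 1.81). Values of a few list members are not reported here, although list counts and medians include them.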

Additional observations from a re-analysis of the deposited data

How the results depend on the processing

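DESeq2 without independent filtering called 224 genes (73 higher, 151 lower), and 226 (69 higher, 157 lower) when fitted to the 6 libraries alone; 222 and 220 of these, respectively, were also called by edgeR. The other settings that kept all 6 libraries gave 295 (DESeq2 with independent filtering) to 390 genes. Leaving out each library gave 222 to 331 genes, of which 69 to 125 were higher and 153 to 206 lower, with the lowest counts without soft replicate 2. Without single libraries, the fit of all biotypes called 205 to 311 genes, including 10 to 13 that are not protein-coding. The difference between AHA concentrations gave 0 to 2 calls, the 2 arising without soft, high AHA replicate 2. RLE scaling moved the median of all genes by 0.00348.

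Of the 90 called genes named by rule, 68 kept their call in every setting with all libraries in which they were tested (at most 10) and 51 also without each library; 25 of the named genes were tested in fewer than 10. None of the 384 called genes changed sign in any of the 16 other settings in which it was tested. Uncalled genes near 0 did. Sox4 was 0.00331 with RLE, 0.00436 with the filter of 2 counts, 0.00222 with 18 libraries, 0.000436 with the newer edgeR method, 0.00118 with 6 libraries, 0.00175 with DESeq2 under either filter and 0.000696 with DESeq2 on 6 libraries. Cnn3 was 0.00346 with RLE, 0.0044 with the filter of 2 counts, 0.00237 with 18 libraries, 0.0013 with 6 libraries, 0.00277 with DESeq2 and 0.00117 with DESeq2 on 6 libraries, and mt-Nd1 was 0.00125 with the filter of 2 counts. Without single libraries, log2 fold changes were Klf5 -0.0446 to 0.0654, Sox4 -0.0145 to 0.0357, Cnn3 -0.0273 to 0.0154, Fn1 -0.0591 to 0.0348, Col18a1 -0.0305 to 0.0107, Lmnb2 -0.0796 to 0.0583, Spry4 -0.0126 to 0.0143, Srebf2 -0.0800 to 0.00725, Top2a -0.00199 to 0.0222, mt-Nd1 -0.0678 to 0.0301 and Pou5f1 -0.0129 to 0.0556.

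No paired analysis was possible because the labels give no replicate numbers that the groups share. Depth limits the low genes, and those near 1 CPM rest on few counts. Only 3 libraries per group were available, the same 17 libraries set the spread of each test, and counts cover protein-coding RNA relative to its total, so an overall change in RNA per cell would not be seen.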

Other observations

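Of the 384 called genes, 280 belonged to none of the 24 lists, 118 of them higher and 162 lower on soft gels. The 8 with the lowest adjusted p in each direction are given here and were chosen after their values were seen. First on the higher side was Apoe, the lipid carrier protein that mESCs secrete, with 563, 554 and 521 CPM on soft and 458, 447 and 429 CPM on stiff gels (log2 fold change 0.30, SE 0.042, edgeR adjusted p = 4.35e-08). It was followed by Ulk1, the kinase that starts autophagy (262, 253 and 234 CPM on soft and 204, 194 and 189.7 CPM on stiff gels, log2 fold change 0.35), the histone H3K4 demethylase Kdm5b (0.22), the helicase Eif4a2 (0.25), the secreted phosphoprotein osteopontin (Spp1, 0.30), Gigyf1 (0.32), threonine dehydrogenase (Tdh, 0.32), an enzyme that mESCs rely on, and the Hedgehog receptor Ptch1 (0.29). All 3 soft libraries lay above all 3 stiff libraries for each of the 8.

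On the lower side came Phldb2 (LL5β), which tethers microtubules near focal adhesions, with 91.5, 81.2 and 89.7 CPM on soft and 142, 135 and 148 CPM on stiff gels (log2 fold change -0.69, SE 0.071, edgeR adjusted p = 7.36e-14). The imprinted, retrotransposon-derived gene Peg10 was 3856, 3933 and 3881 CPM on soft and 4693, 4501 and 4751 CPM on stiff gels (log2 fold change -0.26, SE 0.029, edgeR adjusted p = 2.80e-12). The β-tubulin Tubb6 (-0.42), the cytolinker plectin (Plec, -0.29), the actin-binding protein Lasp1 (-0.25), the chromatin remodeller Baz1a (-0.34), the 14-3-3 protein stratifin (Sfn, -0.36) and the ERK phosphatase Dusp9 (-0.32) completed the 8. No soft library reached a stiff library for any of these.

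A list of 51 genes of lysosomes, autophagy and nutrient sensing was drawn up after several of its members had been seen among the called genes, so its count is a description and no test was made. Of the 51, 10 rose and none fell, 38 had a positive log2 fold change, and the median was 0.09. Over all tested genes 1.01% were called higher and the median was -0.000706. Those called were folliculin (Flcn, 0.36) and its partner Fnip1 (0.31), the GTPase Rragd (0.24), Tsc1 (0.27), Ulk1, Atg2a (0.24), Atg16l2 (0.69), the lysosomal enzymes Ctsa (0.39) and Hexa (0.47), and progranulin (Grn, 0.23). Each of them except Ulk1 lost its call without at least 1 library, and the number called was 4 without soft replicate 2, 5 without soft replicate 1, stiff replicate 1 or stiff replicate 3, 6 without stiff replicate 2, 7 without soft replicate 3, and 4 with DESeq2. At low and high AHA, in other libraries, the median of the list was 0.0736 and 0.0620. Ulk1 (0.23) and Rragd (0.29) were called higher and Ctsl (-0.32) lower at low AHA, and no member was called at high AHA. Of the members called at mid AHA, Hexa was negative at low (-0.03), and Flcn (-0.01) and Atg16l2 (-0.10) were negative at high AHA. The others were positive at both.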
